A study of Mus musculus with 6 samples.

Results

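The genes described here are 10 members of the Hippo pathway, chosen by name from the 56941 genes of the count table. They are the co-activator genes Yap1 and Wwtr1, which encodes TAZ, the genes of the DNA-binding partners Tead1, Tead2, Tead3 and Tead4, the kinase genes Lats1 and Lats2, and the target genes Ccn1 and Ccn2. The table holds 8 of them under these symbols and 2 under former symbols, Ccn1 as Cyr61 and Ccn2 as Ctgf, which were matched by their Ensembl identifiers. All 10 passed the filter on low counts that left 32149 genes for testing.

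Total RNA was sequenced from HFSCs (hair follicle stem cells), sorted from dorsal skin of female mice at PD68 (postnatal day 68) by CD34 and α6-integrin, as 3 libraries labelled WT and 3 labelled Dab2-cKO, each a biological replicate per the labels. The WT mice were K14CreER-/- Dab2 fl/fl and the Dab2-cKO mice K14CreER+/- Dab2 fl/fl, on the strain B6;129S4-Dab2tm1Cpr/J. Both genotypes thus carried the floxed alleles, and both received tamoxifen at 75 mg/kg on 5 consecutive days. In the cKO, Cre is driven by the K14 promoter, which is active in basal keratinocytes and not in dermal cells. The series asks how loss of Dab2, an endocytic adaptor, changes gene expression in these cells.

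In the Hippo pathway, the kinases LATS1 and LATS2 phosphorylate YAP and TAZ, which then stay in the cytoplasm or are degraded. Unphosphorylated YAP and TAZ enter the nucleus, bind TEAD proteins and switch on genes such as Ccn1 and Ccn2, which encode secreted matricellular proteins. In skin, YAP is known to act in basal keratinocytes and to promote their proliferation. RNA levels of Yap1, Wwtr1 and the LATS genes do not show the phosphorylation or location of the proteins.

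The libraries held 7040032 to 11696457 counts. Dab2 itself went against the labels, since WT replicates 1 to 3 held 304, 368 and 362 raw counts of it and Dab2-cKO replicates 1 to 3 held 1504, 1130 and 1259. Every direction below is therefore that of the libraries as labelled, and would turn if the labels were exchanged. What lay behind the higher Dab2 counts in the libraries labelled Dab2-cKO was not tested. All 12 genes listed as bulge markers were detected, among them Cd34 and Itga6, which encode the sorting markers, and Krt14 and Krt5. Krt14 and Krt5, the most abundant of the 12, encode basal keratins that are not particular to the bulge. Together the 12 genes took 0.2783% to 0.2915% of all counts in WT and 0.3449% to 0.367% in Dab2-cKO. This share is therefore not a measure of bulge cells alone. Fibroblast markers, 10 genes, took more, with 1.33% to 1.47% of all counts in WT and 3.27% to 3.57% in Dab2-cKO. In bulk RNA, fewer cells of a type and less RNA per cell cannot be told apart.

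The promoters of 7 of the 10 members were in the RefSeq promoter table of GRCm38.p6, a different build from the GRCm39 of the counts. Tead1, Tead4 and Ccn2 were not in it. TEAD proteins bind the core GGAATG, or CATTCC on the other strand, and the 250 bases before the transcription start were searched for it on both strands. It was present in 4 of the 7 genes, Ccn1, Yap1, Wwtr1 and Tead3, against 14.4% of the 27025 genes in the table. A gene was counted if any of its listed promoters held the core, so these shares depend on how many promoters are listed. Tead2, Lats1 and Lats2 did not hold the core. The 4 genes with it, a target gene and some of the effector genes, are shown 5′ to 3′ on the strand of the gene, with the core in capitals.
Ccn1, chr3:145649986-145650235, minus strand: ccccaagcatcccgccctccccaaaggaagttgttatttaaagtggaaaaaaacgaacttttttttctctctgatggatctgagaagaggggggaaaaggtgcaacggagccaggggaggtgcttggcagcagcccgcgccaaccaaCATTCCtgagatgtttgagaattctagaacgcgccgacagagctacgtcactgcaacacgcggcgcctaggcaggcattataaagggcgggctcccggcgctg
Yap1, chr9:8004597-8004846, minus strand: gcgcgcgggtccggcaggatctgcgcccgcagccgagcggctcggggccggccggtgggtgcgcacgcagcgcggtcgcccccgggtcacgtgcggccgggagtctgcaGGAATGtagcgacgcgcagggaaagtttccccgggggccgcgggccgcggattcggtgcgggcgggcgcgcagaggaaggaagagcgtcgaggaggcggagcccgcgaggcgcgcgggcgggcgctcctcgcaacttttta
Wwtr1, chr3:57575911-57576160, minus strand: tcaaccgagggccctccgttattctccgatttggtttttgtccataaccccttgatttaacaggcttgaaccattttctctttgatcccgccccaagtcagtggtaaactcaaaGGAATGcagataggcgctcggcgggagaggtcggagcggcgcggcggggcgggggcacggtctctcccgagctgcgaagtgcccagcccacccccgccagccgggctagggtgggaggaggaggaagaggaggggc
Tead3, chr17:28350601-28350850, minus strand: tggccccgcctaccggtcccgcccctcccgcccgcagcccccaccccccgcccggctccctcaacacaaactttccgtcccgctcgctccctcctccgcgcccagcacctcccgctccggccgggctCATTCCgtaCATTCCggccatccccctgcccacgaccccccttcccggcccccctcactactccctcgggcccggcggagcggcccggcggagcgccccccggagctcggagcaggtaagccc
In Ccn1 the core lay, as CATTCC, 103 to 98 bases before the start, in Yap1 141 to 136 and in Wwtr1 136 to 131. The Tead3 promoter shown, one of 3 listed for this gene, held CATTCC at 123 to 118 and again at 114 to 109 bases before the start. Another of the 3 held GGAATG at 182 to 177 bases before its own start. Of the 20 other YAP/TAZ target genes described further on, 14 were in the table and 6 of these held the core, among them Axl, Ptpn14, Amotl2 and Ankrd1. None of the 7 members held the AP-1 motif TGANTCA, found in 7.82% of the 27025 genes, or the cAMP response element TGACGTCA, found in 1.77%. At such shares 7 genes are too few for an absence to be read. Such a match is a description of letters and not a measured binding site.

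In the libraries labelled Dab2-cKO, 5 of the 10 members rose and 3 fell at an edgeR adjusted p under 0.05, against 28.2% of all genes tested (16.8% higher and 11.5% lower). The share called was larger among genes with more counts. Of the 14801 genes with a mean count of at least 50, 30.1% were higher and 27.4% lower. With that filter 4 of the 10 members were higher and 3 lower. Both target genes rose, Ccn1 by 5.09-fold and Ccn2 by 2.02-fold. Among the effectors Wwtr1, Tead1 and Tead4 rose and Yap1 and Tead3 fell, with changes of 1.14-fold to 1.51-fold. Of the kinases, Lats1 fell by 13.4% and Lats2 did not pass the test. The 8 genes called were also those whose libraries did not overlap between genotypes, which held for 38.3% of all genes tested (20.6% with every Dab2-cKO library above WT and 17.7% below). The median log2 fold change was 0.13 over the 10 members and -0.02 over all genes tested. With WT replicate 3 left out, 5 of the 10 members were called in place of 8.

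**Figure D1:**
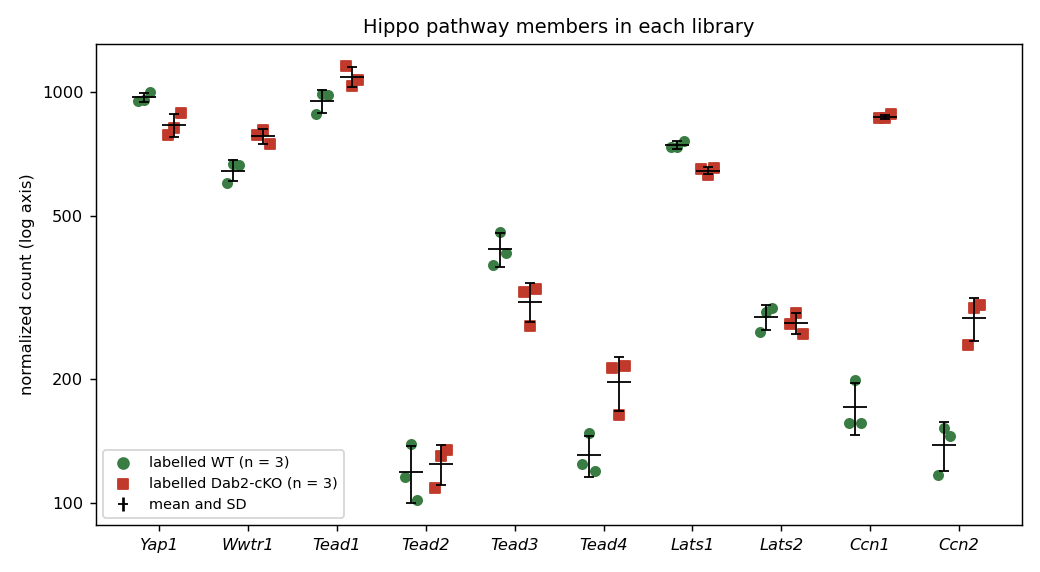
Normalized count of each of the 10 members in every library (log axis), with circles for the 3 libraries labelled WT, squares for the 3 labelled Dab2-cKO, and bars for the mean and SD. The genotypes are widest apart in Ccn1 and Ccn2, and overlap in Tead2 and Lats2.

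Ccn1 (ENSMUSG00000028195, chromosome 3, 145352720 to 145355738 in GRCm39, minus strand) encodes a matricellular protein that binds integrins, and is also known as an immediate early gene. Its normalized count, scaled for library size and composition by TMM, was 157, 199.5 and 156 in WT replicates 1 to 3, against 867, 869 and 884 in Dab2-cKO replicates 1 to 3. Every Dab2-cKO library was above every WT library, and the 3 Dab2-cKO values lay close together. The means were 171 ± 24.7 and 873 ± 9.45 (SD, n = 3 each), a log2 fold change of 2.35 (SE, the standard error, 0.10, edgeR's adjusted p = 6.61e-33). Per kb of exon, the Ccn1 level went from 84.1 to 429.7 normalized counts.

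Ccn2 (ENSMUSG00000019997, chromosome 10, 24471333 to 24474900, plus strand) encodes connective tissue growth factor. The 3 WT libraries held 117, 153 and 145 normalized counts and the 3 Dab2-cKO libraries 243, 299 and 303.5. Again the genotypes did not overlap. Means of 138 ± 18.8 and 282 ± 33.6 (SD, n = 3 each) gave a log2 fold change of 1.02 (SE 0.13, edgeR's adjusted p = 3.48e-10). Both target genes kept their direction and their call in all 13 alternatives, at 1.92 to 2.49 for Ccn1 and 0.59 to 1.10 for Ccn2 on the log2 scale.

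Genes annotated on the opposite strand, Gm17501 and Gm15270, overlap 23.0% of the exon bases of Ccn1 and 36.5% of those of Ccn2. As the strand setting of the counting is not given in the sources used here, reads at these bases cannot be assigned with certainty. Gm17501 itself was counted at 20.6 and 35.1 normalized counts in WT and Dab2-cKO, and Gm15270 at 36.8 and 40.1. A background spread evenly over all exons, estimated from 1561 chemosensory receptor genes, would give 9.94 counts in Ccn1 and 15.6 in Ccn2.

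Several other gene lists were also higher in the libraries labelled Dab2-cKO, some described here and others further on. Of the marker lists, the immune markers had the largest median log2 fold change (1.96). Of 14 immediate early genes, which respond within minutes to stress or growth factors and often to tissue dissociation, 11 rose and none fell at an adjusted p under 0.05, with a median log2 fold change of 1.26, where 16.8% of all genes tested rose. Among genes with a mean count of at least 50, 30.1% rose. Fos went from 333 to 2427 normalized counts and Jun from 902 to 2543. Summed, these 14 genes made up 0.0583% to 0.0605% of a WT library and 0.120% to 0.123% of a Dab2-cKO library. All 10 fibroblast markers rose, with a median of 1.59, and so did all 8 endothelial markers, with a median of 1.83. Col1a1 and Col3a1, the most abundant fibroblast markers, reached 135900 and 133000 normalized counts in Dab2-cKO. No gene of these lists was at 0 in any library. The part of immediate early genes and of dermal cells in the rise of Ccn1 and Ccn2 was not tested.

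Yap1 (ENSMUSG00000053110, chromosome 9, 7932000 to 8004661, minus strand), which encodes the co-activator YAP, had 955, 961 and 1001 normalized counts in WT replicates 1 to 3. In Dab2-cKO replicates 1 to 3 it had 788, 821.5 and 891, all below the WT libraries. The means were 972 ± 24.7 and 833 ± 52.5 (SD, n = 3 each), a log2 fold change of -0.22 (SE 0.075, 95% interval -0.37 to -0.07, edgeR's adjusted p = 0.0164). The sign was the same in all 13 alternatives, and the call was lost without WT replicate 3 (adjusted p = 0.13 by edgeR) and without Dab2-cKO replicate 1 (adjusted p = 0.0618).

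Wwtr1 (ENSMUSG00000027803, chromosome 3, 57363067 to 57483331, minus strand) encodes TAZ, the paralog of YAP. It was counted at 601, 668 and 666 in the WT libraries and at 788, 810.0 and 747 in the Dab2-cKO libraries, on the normalized scale. Here the Dab2-cKO libraries were the higher ones. Wwtr1 rose from 645 ± 38.1 to 782 ± 31.9 (SD, n = 3 each), a log2 fold change of 0.27 (SE 0.08, edgeR's adjusted p = 0.00378) that was -0.15 with scaling by library size only. It did not pass with upper-quartile scaling (log2 fold change 0.13, adjusted p = 0.144 by edgeR).

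Since both genes were measured in the same library, their ratio does not depend on the scaling between libraries. The log2 ratio of Wwtr1 to Yap1, in counts per kb of exon, was -1.004, -0.86 and -0.92 in the WT libraries and -0.34, -0.36 and -0.59 in the Dab2-cKO libraries. The geometric mean ratio was 0.525 in WT and 0.744 in Dab2-cKO per kb of exon. Per kb of coding exon, the Wwtr1 and Yap1 levels overlapped in Dab2-cKO (541 and 538 normalized counts) and Yap1 was the higher in WT (446 and 628). The difference of 0.50 on the log2 scale had no overlap between genotypes (p = 0.1 by an exact 2-sided permutation test, the lowest that it can reach with 3 libraries a group, and 0.175 when adjusted over the 7 ratios and shares compared within libraries). It lay between 0.46 and 0.58 with each library left out in turn.

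The TEAD genes encode the DNA-binding partners through which YAP and TAZ act, and they did not move one way. Tead1 (ENSMUSG00000055320, chromosome 7, 112278522 to 112506014, plus strand) had 884, 992 and 989 normalized counts in WT and 1161, 1038 and 1075 in Dab2-cKO. The log2 fold change of 0.19 (SE 0.07, edgeR's adjusted p = 0.043) became -0.24 with scaling by library size only. Tead1 was called in 3 of the 13 alternatives, 1 of them that reversal, fewer than any other of the 8 genes called.

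Tead3 (ENSMUSG00000002249, chromosome 17, 28550645 to 28569791, minus strand) fell, with 380, 458 and 407 normalized counts in WT and 326, 270.4 and 332 in Dab2-cKO. The libraries of the genotypes did not overlap. Its means were 415 ± 39.6 and 310 ± 34.1 (SD, n = 3 each), a log2 fold change of -0.42 (SE 0.10, edgeR's adjusted p = 0.000566), and it was called in all 13 alternatives.

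Tead4 (ENSMUSG00000030353, chromosome 6, 128201251 to 128277786, minus strand) went the other way. Its WT libraries held 125, 148 and 120 normalized counts and its Dab2-cKO libraries 214, 163 and 215, of which an even background would give 29.7. Dab2-cKO replicate 2 was nearest to the WT libraries but still above them. Tead4 rose from 131 ± 15.2 to 197 ± 29.5 (SD, n = 3 each), a log2 fold change of 0.60 (SE 0.14, edgeR's adjusted p = 0.000393). It kept its direction in all 13 alternatives and lost the call with library size only (log2 fold change 0.17, adjusted p = 0.327 by edgeR).

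Tead2 (ENSMUSG00000030796, chromosome 7, 44865172 to 44883071, plus strand), best known from early embryos and neural progenitors, ranged from 102 to 139 normalized counts in the WT libraries and from 109 to 135 in the Dab2-cKO libraries. The genotypes overlapped. Its log2 fold change of 0.06 (95% interval -0.25 to 0.38, edgeR's adjusted p = 0.839) was within the spread of the libraries, and its sign was negative in 5 of the 13 alternatives.

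Within each library, the 4 TEAD genes were also compared as shares of their summed counts per kb of exon. Tead1 held the largest share, 40.2% ± 2.10 in WT against 44.3% ± 2.02 in Dab2-cKO (SD, n = 3 each), and the libraries overlapped. The share of Tead3 was 34.6%, 35.7% and 35.3% in the WT libraries and 25.7%, 24.0% and 26.2% in the Dab2-cKO libraries. That of Tead4 was 12.6%, 12.8% and 11.5% against 18.6%, 16.1% and 18.8%. The difference, Dab2-cKO minus WT, was -9.87 percentage points for Tead3 and 5.55 for Tead4, without overlap (exact 2-sided permutation test, p = 0.1 each, adjusted p = 0.175). With coding exons as the length, these differences were -7.32 and 3.50. Tead2 held 12.4% ± 1.34 and 12.6% ± 1.89 (exact 2-sided permutation test, p = 0.9).

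**Figure D2:**
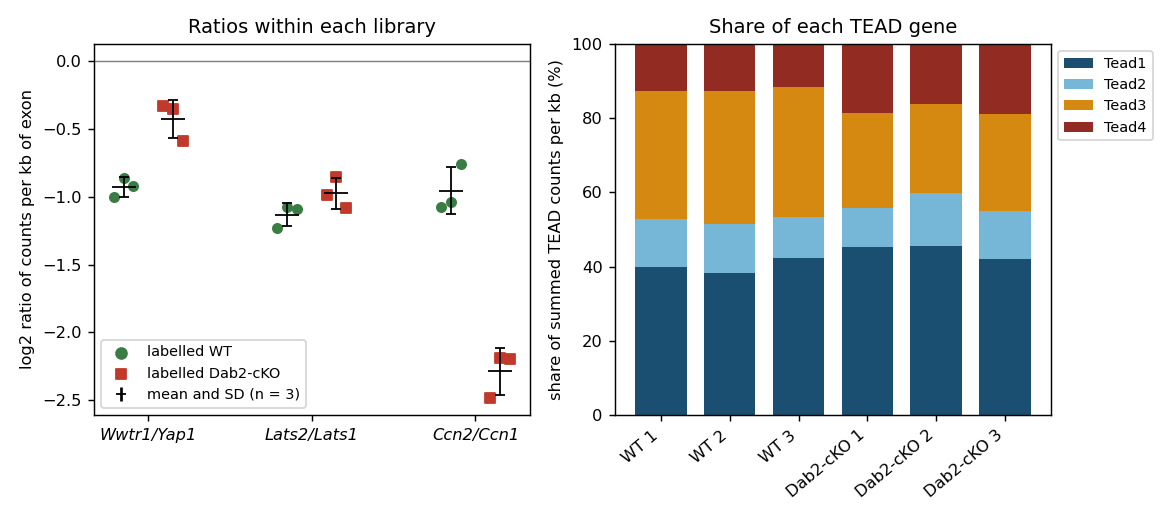
Left, log2 ratio of counts per kb of exon between paired genes in each library, with circles for libraries labelled WT, squares for Dab2-cKO, and bars for the mean and SD of 3 libraries. Right, share of each TEAD gene in the summed TEAD counts per kb of exon, 1 bar per library, with Tead3 at 34.6% to 35.7% in WT and 24.0% to 26.2% in Dab2-cKO.

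Lats1 (ENSMUSG00000040021, chromosome 10, 7556736 to 7592226, plus strand) and Lats2 (ENSMUSG00000021959, chromosome 14, 57926960 to 57995845, minus strand) encode the kinases that restrain YAP and TAZ. Lats1 had 735, 738 and 762 normalized counts in WT and 651, 629 and 654.5 in Dab2-cKO, without overlap. Its log2 fold change was -0.21 (SE 0.08, edgeR's adjusted p = 0.0341). The call was lost without WT replicate 3 (adjusted p = 0.183 by edgeR), without Dab2-cKO replicate 2 (adjusted p = 0.0534) and with DESeq2 (adjusted p = 0.05).

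Lats2, itself a known target of YAP and TAZ, had 262, 292 and 299 normalized counts in WT and 274, 291 and 258 in Dab2-cKO. The genotypes overlapped, and the log2 fold change of -0.05 (95% interval -0.27 to 0.16) had an adjusted p of 0.791 by edgeR. With library size only it passed, at -0.48, close to the median of all genes under that scaling (-0.45). Of the exon bases of Lats2, 28.2% are shared on the same strand with Gm49361, which the table also lists under the symbol Lats2, with 0 counts in every library. How reads on these shared bases were counted is not given, so the Lats2 level per kb and its ratio to Lats1 are uncertain. The Lats2 to Lats1 ratio per kb was 0.456 in WT and 0.509 in Dab2-cKO, with overlap (exact 2-sided permutation test, p = 0.2).

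The targets Ccn1 and Ccn2 rose to different extents, which their ratio shows free of scaling. The log2 ratio of Ccn2 to Ccn1 per kb of exon was -1.07, -1.04 and -0.76 in the WT libraries and -2.48, -2.19 and -2.19 in the Dab2-cKO libraries. The difference was -1.33, without overlap (exact 2-sided permutation test, p = 0.1, adjusted p = 0.175), and -1.31 after an even background was taken off the counts.

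The direction of Wwtr1, Tead1 and Tead2 depended on the scaling, while the other members kept theirs. With library size only, the median log2 fold change of all genes moved from -0.02 to -0.45, and 19.4% of the genes called were higher in Dab2-cKO in place of 59.4% (43.5% with upper-quartile scaling). Relative to that median, Yap1 stood at -0.20, Wwtr1 at 0.30, Tead1 at 0.21, Tead3 at -0.40, Tead4 at 0.62 and Lats1 at -0.19, near their values under TMM. Among the 8 genes called, Wwtr1 and Tead1 thus had positive log2 fold changes relative to other genes and negative ones per counted read.

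**Figure D3:**
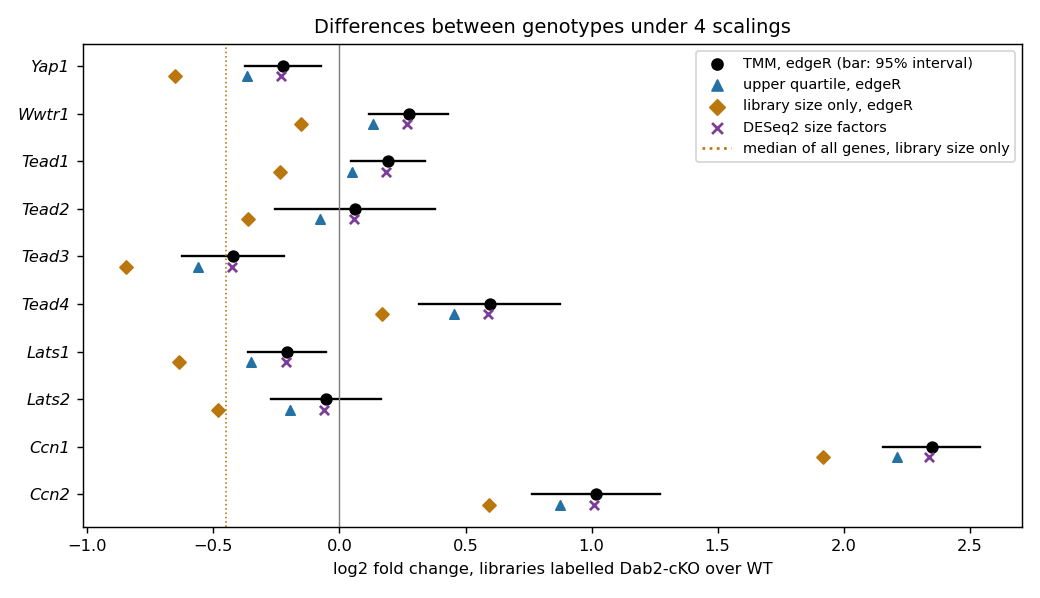
Log2 fold change of the libraries labelled Dab2-cKO over WT for each of the 10 members, with circles and 95% intervals for TMM, triangles for upper-quartile scaling, diamonds for library size only and crosses for DESeq2. Wwtr1, Tead1 and Tead2 cross 0 with library size only, under which the median of all genes (dotted line) is at -0.45, while Ccn1 stays at 1.92 or above.

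Compared per kb of exon, Yap1 was the highest of the 10 genes in the WT libraries (104 normalized counts per kb), followed by Ccn1 (84.1) and Tead1 (70.3). Below them stood Tead3 (61.8), Lats1 (59.3), Wwtr1 (54.5), Ccn2 (43.4), Lats2 (27.1), Tead2 (21.7) and Tead4 (21.6). Tead1 and Tead3, Tead3 and Lats1, Lats2 and Tead2, and Tead2 and Tead4 were neighbours in this order whose library ranges overlapped. In the Dab2-cKO libraries Ccn1 (429.7) was far above Yap1 (88.9) and Ccn2 (88.5), which overlapped each other. Tead1 (80.4) overlapped Ccn2, and Wwtr1 (66.1), Lats1 (51.4) and Tead3 (46.1) followed without overlap. Tead4 (32.5), Lats2 (26.2) and Tead2 (22.8) were the lowest and overlapped as neighbours. The order depended on the length used. Per kb of coding exon, Tead1 was the highest in WT (706, Yap1 628), and in Dab2-cKO Tead1 (806.5) overlapped Ccn1 (768). Lats2 was the lowest in both (72.2 and 69.7), though in WT its range overlapped that of Tead2 (87.8). All 10 levels per kb of exon were above 11.7 counts per kb, the level that 95% of the chemosensory receptor genes did not exceed.

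The upstream part of the pathway was described by a list of 20 core and upstream regulators. In the Dab2-cKO libraries 9 rose, 4 fell and 7 did not pass, with a median log2 fold change of 0.21 against -0.02 over all genes tested, of which 16.8% rose and 11.5% fell. With library size only, 4 were higher and 10 lower, against 8.35% higher and 34.7% lower over all genes tested. Among genes with a mean count of at least 50, 9 of the list were higher and 5 lower, against 30.1% higher and 27.4% lower. Amot, which encodes the YAP-binding scaffold angiomotin, had 225, 192 and 237 normalized counts in WT and 452, 495 and 458 in Dab2-cKO (log2 fold change 1.10, edgeR's adjusted p = 1.21e-14). Fat4, which encodes an atypical cadherin upstream of the pathway, had 283, 297 and 261 against 633, 544 and 560 normalized counts (log2 fold change 1.05, edgeR's adjusted p = 2.28e-15). In both genes all Dab2-cKO libraries were above all WT libraries. The most abundant regulators changed less, with log2 fold changes of 0.23 for Taok1 and -0.20 for Map4k4, both kinases, and -0.33 for Frmd6, a FERM-domain protein. Amotl1, a relative of Amot, was at 0.13 and did not pass (edgeR's adjusted p = 0.179).

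The Vestigial-like proteins bind TEAD proteins in place of YAP and TAZ, and their 4 genes differed from each other. Vgll3 rose, at 274 ± 31.5 normalized counts in WT against 602 ± 62.2 in Dab2-cKO (SD, n = 3 each, log2 fold change 1.13, edgeR's adjusted p = 3.38e-16). Vgll4, known as a repressor of TEAD activity, fell from 464 ± 42.5 to 246 ± 4.52 (log2 fold change -0.91, edgeR's adjusted p = 6.46e-12). Vgll2, known from skeletal muscle, had 8, 12 and 10 raw counts in WT and 90, 66 and 71 in Dab2-cKO (log2 fold change 3.07, edgeR's adjusted p = 6.52e-14), and as an even background would give 17.6 normalized counts, above the WT mean of 9.43, the WT level cannot be told from background and the fold change has no fixed base. Vgll1 was at 44.2 and 38.1 normalized counts and did not pass (edgeR's adjusted p = 0.64).

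Of 20 other genes commonly read as YAP/TAZ targets, 10 rose, 6 fell and 4 did not pass, with a median of 0.13, against -0.02 over all genes tested and 16.8% of them higher and 11.5% lower. With library size only, 7 were higher and 8 lower, where 8.35% of all genes tested were higher and 34.7% lower. Among genes with a mean count of at least 50, 10 of these targets were higher and 6 lower, against 30.1% higher and 27.4% lower. Igfbp3, which encodes an insulin-like growth factor binding protein, had 246, 285 and 226 normalized counts in WT and 675, 762 and 684 in Dab2-cKO (log2 fold change 1.49, edgeR's adjusted p = 1.87e-22). Tgfb2, a TGF-β ligand gene, went from 134 ± 10.4 to 334 ± 5.30 (SD, n = 3 each, log2 fold change 1.32, edgeR's adjusted p = 2.12e-15). Both encode secreted factors, and their libraries did not overlap between genotypes. Of the abundant targets, Axl, a receptor tyrosine kinase gene, rose by 1.25 and Ccdc80, a matrix protein gene, by 1.15 on the log2 scale. In contrast, Ptpn14, which encodes a phosphatase that binds YAP, fell by 0.25 on the log2 scale, and Amotl2 rose by 0.32. Ankrd1, often used as a YAP target in cultured cells, had 34.3 ± 4.98 and 30.4 ± 6.13 normalized counts (SD, n = 3 each) and no difference was detectable at this depth. An even background would give 14.6 of these counts. Its levels per kb, 11.49 in WT and 10.18 in Dab2-cKO, were below 11.7, which 95% of the chemosensory receptor genes did not exceed.

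Of the 4 other CCN family genes 1 passed (25.0%), against 28.2% of all genes tested. Among genes with a mean count of at least 50, 30.1% were higher and 27.4% lower. Ccn5 had 51.2, 32.5 and 40.2 normalized counts in WT and 169, 123 and 106 in Dab2-cKO (log2 fold change 1.70, edgeR's adjusted p = 7.74e-11). Ccn3 (log2 fold change 0.13), Ccn4 (-0.13) and Ccn6 (-0.79) did not pass, with 64.8, 91.3 and 28.3 normalized counts in WT, of which an even background would give 27.8, 29.8 and 19.3.

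**Figure D4:**
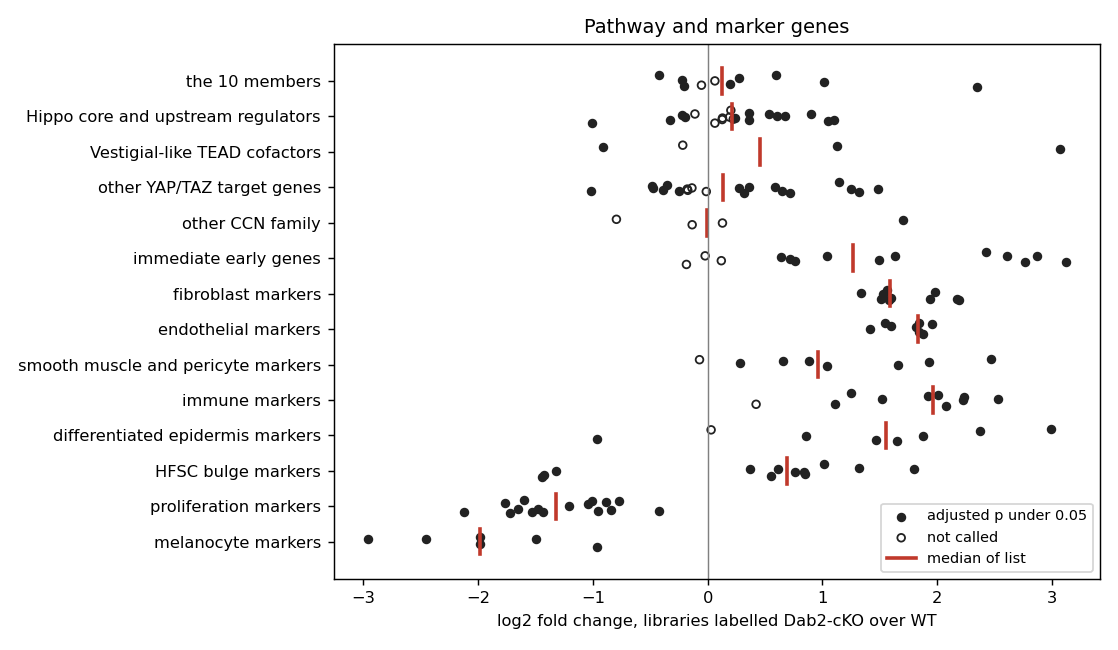
Log2 fold change of the libraries labelled Dab2-cKO over WT for the genes of the pathway and marker lists. Filled points are genes at an edgeR adjusted p under 0.05, open points the others, and a bar is the list's median. The 16 hair shaft and inner root sheath markers, all lower (median -6.65), are not drawn. Pathway genes lie on both sides of 0, while all 10 fibroblast and all 8 endothelial markers are above it and all 16 proliferation markers below it.

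Among the pathway genes tested, likeness to Yap1 and to Ccn2 was measured as the distance between centred log2 CPM profiles over the 6 libraries. Lats1 (0.124), Mob1b (0.214) and Frmd6 (0.225) were nearest to Yap1, out of 57 genes. Vgll3 (0.249), Ccdc80 (0.341) and Axl (0.442) were nearest to Ccn2. The 6 points come from the same libraries for every gene and differ mainly by genotype, so these distances are a description with no test.

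The markers of other cells that could be in the sorted fraction moved in several directions, where 16.8% of all genes tested rose and 11.5% fell. Among genes with a mean count of at least 50, these shares were 30.1% and 27.4%. The 10 immune markers had a median log2 fold change of 1.96, with 9 called higher, and took 0.0261% to 0.0266% of the counts in WT and 0.0807% to 0.0848% in Dab2-cKO. Of 8 smooth muscle and pericyte markers 7 rose, with a median of 0.96. Of 8 markers of differentiated epidermis 6 rose and 1 fell. The 16 proliferation markers fell, with a median of -1.32, as did the 6 melanocyte markers (-1.99) and the 16 hair shaft and inner root sheath markers (-6.65), which took 3.13% to 3.44% of the counts in WT and 0.0300% to 0.0311% in Dab2-cKO. Of the 12 genes listed as bulge markers 9 rose, among them Krt14, Krt5, Cd34 and Itga6, and 3 fell. As the list holds genes of basal keratinocytes in general, this count does not describe the bulge alone. The 3 that fell were Sox9 (log2 fold change -1.445), Lhx2 (-1.428) and Lgr5 (-1.32). The part of these cells in the changes of Yap1, Wwtr1, the TEAD genes and the LATS genes was not tested.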

How the data were processed

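RNA of sorted HFSCs was sequenced as 3 libraries per genotype. Per the labels, the authors trimmed reads with fastp 0.23.4, aligned them to GRCm39 with HISAT2 2.2.1 and counted them per gene with featureCounts 2.0.6, and the deposited counts are not normalized. The count columns named FL-FL were assigned to Dab2-cKO because the series title equates both. The authors' DESeq2 table (fold changes, p-values, normalized counts) was not used. With R 4.3.3 and edgeR 4.0.16, genes were filtered by filterByExpr, normalized by TMM and compared by the quasi-likelihood test (robust, 2-sided, Benjamini-Hochberg over all genes tested, threshold 0.05). The fit was tried on simulated data with as many genes raised as lowered. That simulation held no shift in composition between genotypes, so it did not test the scaling between libraries. Standard errors are the log2 fold change divided by the root of the F statistic. Counts were normalized to the mean of the effective library sizes. Exon lengths and positions came from the GENCODE annotation of GRCm39. Ratios within libraries used the exact permutation test. A count of 0 allows up to 2.56e-05% to 4.26e-05% of a library (3 counts), and covers counting error only. Replicates differed by more than sampling noise (chi-square per degree of freedom of 3.54 or above in each pair).

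Named were all 10 members, the 4 most abundant genes and the 2 largest called changes of each pathway list. The genes most like Yap1 and Ccn2 and the 2 most abundant markers of a list were also named. Cd34, Itga6, Ankrd1, Sox9, Lhx2 and Lgr5 were chosen after their values were seen. The members and lists were chosen with earlier results of these data known. Alternatives were DESeq2 1.42.0, other scalings, other filters, a replicate block, coding lengths, an even background taken off, and each library left out.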

Additional observations from a re-analysis of the deposited data

How the results depend on the processing

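Ccn1, Ccn2 and Tead3 kept their direction and call in all 13 alternatives, and Yap1, Tead4, Lats1 and Lats2 kept their direction. With library size only, 13854 genes were called in place of 9069, and the log2 fold change turned negative for Wwtr1 (-0.152), Tead1 (-0.236) and Tead2 (-0.361), as the effective sizes of the Dab2-cKO libraries are then larger by construction. Tead2 was also negative with upper-quartile scaling (-0.0785) and a mean count of at least 50 (-0.0217). With each library left out in turn, Tead2 ranged from -0.0366 to 0.205, 5 to 8 members and 7996 to 8546 genes were called, and the difference in the Tead2 share ranged from -0.587 to 1.26 percentage points. That difference was -0.123 with coding exon lengths. The cause was not tested for Tead2. The replicate numbers were not used as pairs in the main fit. Same-numbered libraries had correlations of 0.0678, -0.00736 and 0.0554 in their deviations from the group means, and the others -0.0899 to 0.0452. With 3 libraries a group, these values cannot exclude a pairing. With a replicate block, 8967 genes and 7 members were called, Tead1 being lost (adjusted p = 0.0539 by edgeR). The order of levels per kb of coding exon was added after seeing the data. Tead2, Ccn2 and Tead4 had as few as 104, 105 and 112 counts in a library, which limits their precision.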
